A study of Mus musculus with 31 samples.

Results

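The genes described here are a list of 42 mouse genes of apoptosis and of the caspases, chosen by function with earlier results of these data known. No measured value enters the rule: a gene belongs to the set when the annotation of the array gives its symbol, and no other symbol, to a spot. By that rule 38 of the 42 genes were on the array, as 39 spots, among 10600 genes with a spot of their own, and no spot carried the name of Bax, Ripk1, Ripk2 or Tradd. All 38 symbols were still the current ones of their Entrez genes.

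Macrophages were grown for 8 days from bone marrow of wild-type C57BL/6J mice and of mice without MyD88 (MyD88-/-), aged 6 to 8 weeks, in medium with L929-conditioned medium as the source of CSF-1. MyD88 is a signalling adaptor of nearly all Toll-like receptors and of the interleukin-1 receptor. For 2 hours the cells were given 10 ng/mL re-purified LPS, the outer-membrane lipid of Gram-negative bacteria, or live E. coli, 1 bacterium to a macrophage, or medium alone, called mock. Each of 31 spotted 2-colour arrays held labelled cDNA of stimulated and of mock cells of 1 mouse, and the value of a spot is the log2 ratio of its dyes. Cells of 4 mice of each genotype were given LPS and cells of 4 were given E. coli, which makes 4 groups, each mouse on 2 arrays with swapped dyes except MyD88-/- LPS mouse 4, which had 1. The 2 arrays of a mouse were averaged. The ratio is read as stimulated over mock, a direction that is likely from the titles and from known LPS genes such as Tnf but is not stated in the labels. Both cell states on an array came from 1 genotype, so the ratio of Myd88 itself does not check the genotype.

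Apoptosis is a programmed death in which caspases, proteases held as inactive precursors, cut cell proteins. Death receptors such as Fas start it from outside through the adaptor FADD and caspase-8, and the BCL2 family starts it from inside by deciding whether mitochondria release cytochrome c, which with APAF1 activates caspase-9. A separate set, the inflammatory caspases, is switched on in inflammasomes and matures interleukin-1 and interleukin-18 or opens the cell by pyroptosis. In macrophages, Toll-like receptor signals are known to induce inhibitors of death through NF-kB while bacterial products can also trigger death.

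Of the 38 genes, 30 had ratios from 3 or more of the 4 mice in all 4 groups and were tested, 13 of them with a value on all 31 arrays. The other 8 were too sparsely measured. Traf2, a signalling adaptor of TNF receptors, had no value on any array, and Bbc3 had values on 6, Bcl2l2 and Bik on 7, Bcl2 and Dffb on 9, Fasl on 10 and Casp9 on 13. Casp9, the initiator caspase of the mitochondrial route, had no value in any of the 4 wild-type E. coli mice, while its log2 ratios in the MyD88-/- LPS mice ran from -3.14 to -0.06. Arrays held between 5564 and 10497 values for 13872 spots. A log2 ratio has no level of its own, so these data do not tell how abundant a transcript was, nor whether fewer cells of a type or less RNA per cell lies behind a lower ratio. Of the 11 macrophage markers with a spot 10 had values on at least 28 arrays, against 1 of 8 T cell markers (Cd28), 0 of 7 B cell, 2 of 9 neutrophil (S100a8 and S100a9), 1 of 8 stromal (Sparc) and 0 of 4 erythroid markers, and Cd3e, a defining T cell gene, had no value. Just under 28 arrays were Cd79a (B cell) and Mmp8 (neutrophil) on 27, Vpreb3 (B cell) on 26 and Cd4 (T cell) on 25. The macrophage marker below was Cd14, on 9. Of 10 macrophage markers tested, 1 was called higher and 2 lower in wild-type LPS (median -0.24), and 2 higher in MyD88-/- E. coli (-0.14). In the other groups 1 was called each way. The 2 T cell markers tested had a median ratio of -0.35 to -0.76 over the groups with 1 called lower in each, 1 B cell marker was called lower in MyD88-/- LPS, and the 1 stromal marker tested was called higher in wild-type E. coli, where its ratio was 0.66. The part of these markers in the results was not tested.

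Between 11 and 15 of the 30 tested genes were called in each response, and the rises were those of 11 genes. A response here is the mean log2 ratio of a group in a linear model fitted with limma to all 7325 spots that passed the same filter, and a gene is called when its Benjamini-Hochberg adjusted p over those spots is under 0.05. The list was drawn up with earlier results of these data known, so the shares given next describe it and do not test it. With LPS, wild-type cells had 11 of the 30 genes called higher and 1 lower, against 7.99% higher and 9.04% lower over all spots tested, and MyD88-/- cells had 10 higher and 1 lower, against 5.28% and 4.7%. With E. coli, wild-type cells had 10 higher and 5 lower, against 9.43% and 11.8%, and MyD88-/- cells had 10 higher and 2 lower, against 6.35% and 4.42%. The median response of the 30 genes was near that of all spots in wild-type E. coli, at -0.0742 against -0.0575. In the other groups it was positive and that of all spots negative. The values were 0.105 against -0.0482 in wild-type LPS, 0.12 against -0.0514 in MyD88-/- LPS and 0.204 against -0.0489 in MyD88-/- E. coli. Casp1, Casp4, Pycard, Bcl2a1a, Bcl2l11, Birc2, Birc3, Fas, Cflar and Dffa are the 10 genes called higher in each of the 4 groups taken singly, and Apaf1 was called in wild-type LPS alone. The share of all spots called higher in all 4 groups was not counted, so the 10 are named and not read as an excess. The LPS and E. coli arrays of a mouse number may share mock RNA, which the labels do not settle, so the 4 responses are set side by side and not counted as repeats of each other.

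**Figure D1:**
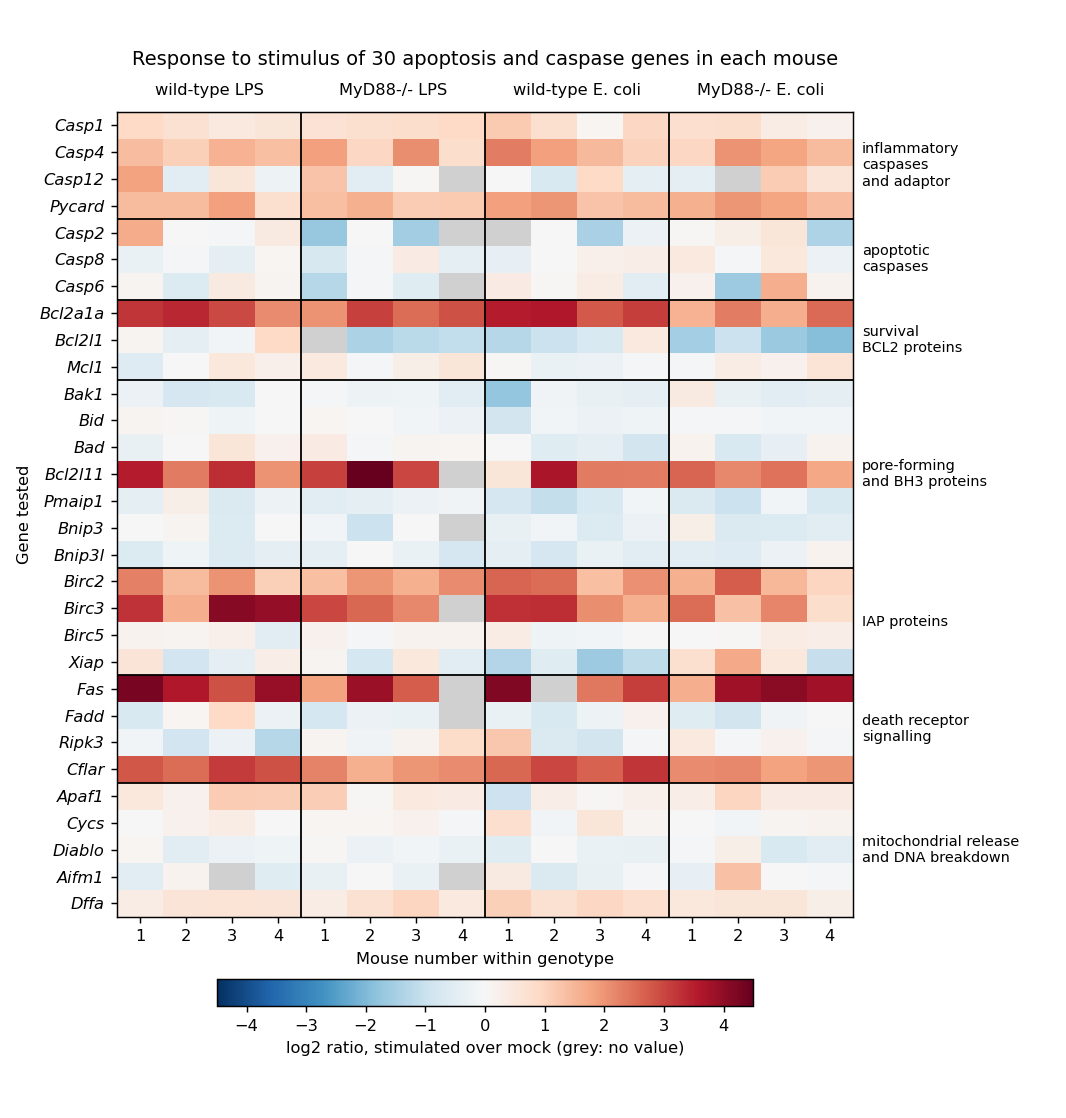
Log2 ratio of stimulated over mock cells for the 30 tested genes (rows, in 7 groups by role) in each mouse of the 4 groups (columns, mouse number within genotype), with grey where a mouse has no value. The rows of Bcl2a1a, Bcl2l11, Birc2, Birc3, Fas and Cflar are above 0 in every mouse with a value, while those of Casp8, Mcl1, Bid, Birc5, Cycs and Diablo stay pale in most mice.

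Of the inflammatory caspases and their adaptor, 3 of 4 rose in every group and Casp12 was not called in any. Casp4, the mouse caspase that binds LPS in the cytosol and drives the non-canonical inflammasome, had log2 ratios of 1.39, 1.06, 1.55 and 1.35 in wild-type LPS mice 1 to 4 and of 1.85, 0.93, 2.08 and 0.78 in MyD88-/- LPS mice 1 to 4. Under E. coli the Casp4 ratios were 2.32, 1.83, 1.47 and 1.02 in wild-type and 0.93, 2.02, 1.78 and 1.41 in MyD88-/- mice. All 16 were at or above 0.78 and the genotypes overlapped under both stimuli. The fitted Casp4 responses were 1.34, 1.41, 1.66 and 1.54 in the order wild-type then MyD88-/- with LPS, wild-type then MyD88-/- with E. coli, each ± 0.24 (SE, n = 4), or 2.53-, 2.66-, 3.16- and 2.9-fold, with limma adjusted p of at most 0.000972.

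Pycard, which encodes ASC, the adaptor that joins inflammasome sensors to caspase-1, was as steady. Its ratios were 1.41, 1.44, 1.84 and 0.72 in the wild-type LPS mice and 1.36, 1.59, 1.15 and 1.19 in the MyD88-/- LPS mice. With E. coli they were 1.85, 1.97, 1.28 and 1.41 in wild-type and 1.59, 1.97, 1.76 and 1.39 in MyD88-/- mice. Every mouse was positive and the genotypes overlapped. The fitted responses were 1.35, 1.32, 1.63 and 1.68, each ± 0.17, with the largest limma adjusted p at 6.54e-05. Casp1, which cuts pro-interleukin-1 beta, rose less, by 0.63, 0.76, 0.72 and 0.51 (SE 0.16 each), or 1.55-, 1.7-, 1.65- and 1.43-fold, with limma adjusted p of 0.0111, 0.00449, 0.00376 and 0.0482. All 16 Casp1 ratios were above 0, from 0.09 to 1.18. The Casp1 call in wild-type LPS did not hold without mouse 1 (0.55), and the one in MyD88-/- E. coli did not hold without mouse 1 (0.43), 2 (0.42) or 3 (0.58). On the swapped arrays alone Casp1 was at 0.48, 0.58, 0.65 and 0.45 and was called in 0 of the 4 groups. Casp12 lay between -0.06 and 0.44, with values on 18 arrays and mice from -0.70 to 1.81.

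The sequence before the start of Casp4 is shown because it is the one among the rising genes in which a search for the NF-kB consensus found a match. The 250 bases upstream of each transcript start in a promoter table from RefSeq on GRCm38.p6 were searched on both strands for that consensus. Windows were found for 37 of the 42 genes. Of all 32851 windows 7.25% held a match. Among the 28 tested genes with a window those of Casp4, Birc5, Bcl2l1 and Aifm1 did, and of the 11 rising genes with a window Casp4 alone. The 37 genes had 48 windows, so the genes are not counted in the same unit as the 7.25%. The match of Casp4 is not read as an excess. The 250 bases before Casp4 (chromosome 9, chr9:5308599-5308848, plus strand) are printed with matches in capitals, beside those of Birc5 (chr11:117848987-117849236, plus strand), which has a match and was not called in any group, and of Bcl2a1a (chr9:88956670-88956919, plus strand), which rose in every group and has none. The 3 windows end at the base before the annotated gene, and for Casp4, which has more than one start in the table, the first was taken.
Casp4: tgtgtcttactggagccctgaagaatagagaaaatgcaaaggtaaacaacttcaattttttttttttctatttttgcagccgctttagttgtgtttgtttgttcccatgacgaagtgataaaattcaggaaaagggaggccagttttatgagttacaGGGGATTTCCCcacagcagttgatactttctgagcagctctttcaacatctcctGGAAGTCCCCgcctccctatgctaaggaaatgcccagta
Birc5: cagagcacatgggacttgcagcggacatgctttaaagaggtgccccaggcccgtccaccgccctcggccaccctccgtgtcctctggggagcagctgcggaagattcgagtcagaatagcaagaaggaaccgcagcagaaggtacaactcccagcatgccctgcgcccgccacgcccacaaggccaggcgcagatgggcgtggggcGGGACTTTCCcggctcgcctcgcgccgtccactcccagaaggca
Bcl2a1a: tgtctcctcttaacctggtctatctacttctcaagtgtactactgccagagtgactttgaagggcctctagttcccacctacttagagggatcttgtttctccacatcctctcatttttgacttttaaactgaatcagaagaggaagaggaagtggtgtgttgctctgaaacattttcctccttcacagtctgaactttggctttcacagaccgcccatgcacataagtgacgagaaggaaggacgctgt
The first capital run of Casp4 holds overlapping matches, 2 on the plus and 1 on the minus strand, and the second run is a match on the minus strand. The Birc5 match lies 44 bases before the start. A match is a description of these letters and says nothing of binding, and the rising genes without one may hold one outside the window.

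None of the 3 apoptotic caspases tested was called, and Casp9 was not tested. For Casp8, the initiator caspase below death receptors, the responses were -0.17, -0.22, 0.04 and 0.14 in the order given above (SE 0.18 each), with mice from -0.73 to 0.46, so that 95% intervals over the 4 groups ran from -0.60 to 0.52. Casp6, an executioner caspase, was at 0.02, -0.63, 0.06 and 0.09 with errors of 0.37 to 0.42. Casp2, an initiator caspase linked to DNA damage, was measured on 19 arrays and scattered between -1.72 and 1.68 from mouse to mouse. Its response in MyD88-/- LPS, -1.09 ± 0.44, was the only one of the 12 values of these 3 genes with an unadjusted p under 0.05 in the limma fit, and its adjusted p was 0.161.

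Among the survival members of the BCL2 family, Bcl2a1a rose strongly, Mcl1 was not called and Bcl2l1 fell in MyD88-/- cells. Bcl2a1a encodes A1, a short-lived inhibitor of apoptosis and a known NF-kB target. Its log2 ratios were 3.23, 3.38, 2.96 and 2.11 in the wild-type LPS mice and 2.03, 3.06, 2.50 and 2.87 in the MyD88-/- LPS mice. Under E. coli they were 3.52, 3.62, 2.75 and 3.10 in wild-type and 1.57, 2.31, 1.62 and 2.54 in MyD88-/- mice. The genotypes overlapped with LPS, and with E. coli every wild-type mouse was above every MyD88-/- mouse. The responses were 2.92, 2.62, 3.25 and 2.01 (SE 0.23 each), or 7.57-, 6.14-, 9.49- and 4.02-fold, with limma adjusted p of at most 2.29e-05. Bcl2a1a has near-identical gene copies in the mouse, and the spots of these copies gave similar values. Over the 4 groups Bcl2a1b ran from 2.06 to 2.81, Bcl2a1c from 2.08 to 3.36 and Bcl2a1d from 2.47 to 3.26. Bcl2a1c was added after its values were seen. A spotted probe can bind RNA of all copies, so these 4 spots cannot be told apart as genes.

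Bcl2l1 encodes BCL-XL, which holds BAX and BAK1 in check. With LPS its ratios were 0.11, -0.40, -0.13 and 0.89 in wild-type mice and -1.41, -1.23 and -1.11 in MyD88-/- mice 2 to 4, mouse 1 having no value. With E. coli they were -1.29, -0.97, -0.70 and 0.44 in wild-type and -1.54, -0.96, -1.67 and -1.92 in MyD88-/- mice. The MyD88-/- mice were all below 0, and wild-type mouse 4 was the highest of its group under both stimuli. Bcl2l1 fell in MyD88-/- cells by 1.25 ± 0.29 with LPS (n = 3, limma adjusted p = 0.012) and by 1.52 ± 0.25 with E. coli (adjusted p = 0.000913), which is 2.38- and 2.87-fold lower. In wild-type cells it was 0.12 ± 0.25 (adjusted p = 0.801) and -0.63 ± 0.25 (adjusted p = 0.0953). The MyD88-/- LPS call was lost without mouse 2 (-1.17) or mouse 3 (-1.26), and the wild-type E. coli value passed the threshold without mouse 4 (-0.99). On unswapped arrays alone it passed as well, at -1.40 (limma adjusted p = 0.00154), beside -1.60 in MyD88-/- E. coli. Mcl1, another guardian of mitochondria, had responses of 0.03, 0.29, -0.15 and 0.26 (SE 0.16 each). Bcl2 and Bcl2l2 were among the genes measured on too few arrays.

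The death-promoting side of the family went in both directions. Bcl2l11 encodes BIM, a BH3-only protein that neutralises all survival members. Its log2 ratios were 3.55, 2.33, 3.33 and 2.02 in the wild-type LPS mice and 3.06, 4.47 and 2.99 in MyD88-/- LPS mice 1 to 3. Under E. coli they were 0.53, 3.67, 2.34 and 2.31 in wild-type and 2.62, 2.17, 2.44 and 1.74 in MyD88-/- mice. All 15 values were positive, the genotypes overlapped under both stimuli, and wild-type E. coli mouse 1 was the lowest. The responses were 2.81, 3.51, 2.21 and 2.24 with errors of 0.40 to 0.46, or 7.01-, 11.4-, 4.64- and 4.74-fold, with limma adjusted p of at most 0.0016. The Bcl2l11 call in wild-type E. coli was lost on the swapped arrays alone (1.39, adjusted p = 0.0506).

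No other pore-forming or BH3 gene was called higher, and 4 of the 7 tested were called lower in at least 1 group. The share of all spots called lower in at least 1 group was not counted, and in wild-type E. coli it was 11.8%. In wild-type E. coli the called falls were those of Bak1, a pore-forming protein of the outer mitochondrial membrane, at -0.67 ± 0.22, of Bid, the BH3 protein cut by caspase-8, at -0.35 ± 0.12, of Bnip3l, a mitophagy receptor, at -0.50 ± 0.14, and of Pmaip1, which encodes NOXA, at -0.66 ± 0.17, with limma adjusted p of 0.0419, 0.0488, 0.019 and 0.0131. Pmaip1 was also called lower in MyD88-/- E. coli, at -0.60 ± 0.17 (limma adjusted p = 0.0356), and Bnip3l in wild-type LPS, at -0.47 ± 0.14 (adjusted p = 0.0331). These falls were of 1.28- to 1.6-fold, with all 4 mice of the group below 0 in each case, and the calls did not hold in every setting. A fit without 1 mouse also has fewer mice, and some calls were lost at a value no nearer to 0. Wild-type E. coli mouse 1 had the lowest values of Bak1 (-1.74) and Bid (-0.83), and without it these were -0.32 and -0.19 and not called. Nor did the Bak1 and Bid calls hold without mouse 3 (-0.78 and -0.38) or 4 (-0.75 and -0.40). The Pmaip1 calls were lost without wild-type E. coli mouse 1 (-0.62) or 2 (-0.52) and without MyD88-/- E. coli mouse 1 (-0.59), 2 (-0.48) or 4 (-0.57). The Bnip3l calls were lost without wild-type LPS mouse 1 (-0.42), 3 (-0.42) or 4 (-0.48) and without wild-type E. coli mouse 2 (-0.42) or 4 (-0.50). On the swapped arrays alone 0 of these 6 calls held, with Pmaip1 at -0.42 in wild-type E. coli, and Bid was at -0.17 on the unswapped ones. Bad, a BH3 protein controlled by growth factor kinases, was at -0.45 ± 0.17 in wild-type E. coli (limma adjusted p = 0.0807), passed without mouse 1 (-0.61), and lay between -0.18 and 0.13 in the other groups. Bnip3, the hypoxia-induced relative of Bnip3l, lay between -0.37 and -0.12. Bik and Bbc3, which encodes PUMA, were not tested.

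**Figure D2:**
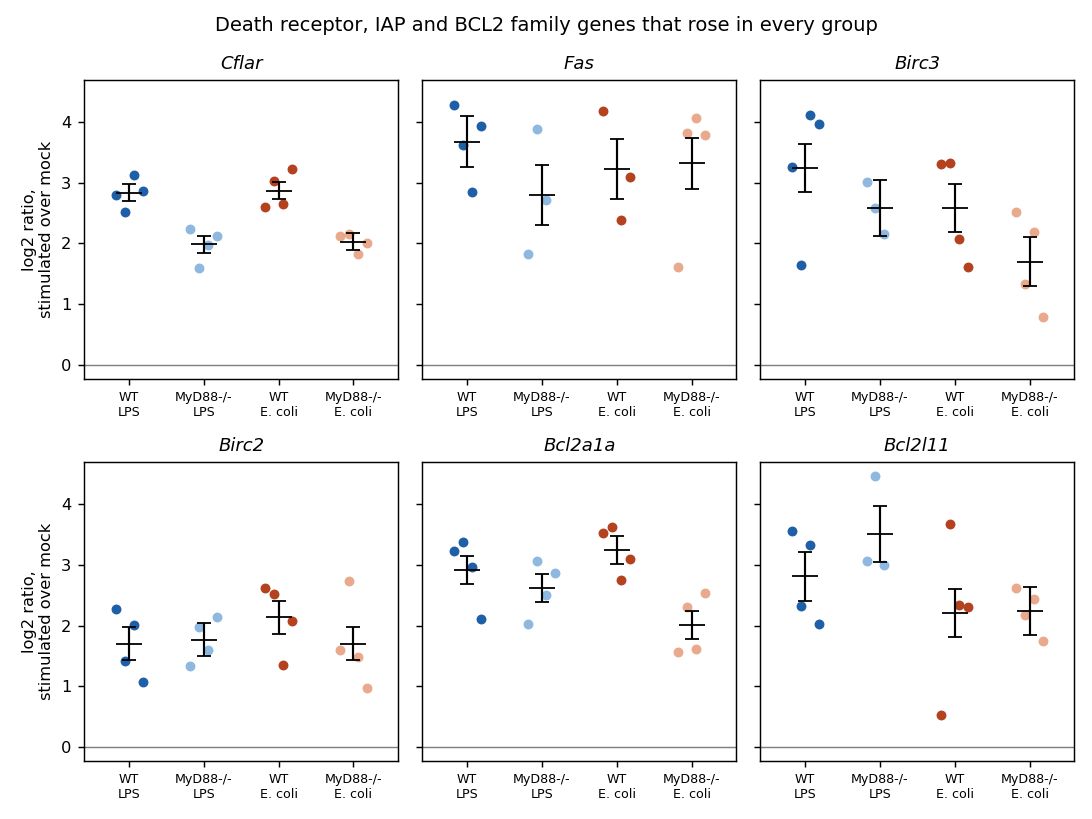
Log2 ratio of stimulated over mock cells in each mouse (points) for Cflar, Fas, Birc3, Birc2, Bcl2a1a and Bcl2l11, by genotype (WT, wild-type) and stimulus, with the limma group mean and its SE (black bars). Every point is above 0, and for Cflar every wild-type mouse lies above every MyD88-/- mouse under the same stimulus.

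Of the 4 IAP genes, whose products are ubiquitin ligases or caspase inhibitors, Birc2 and Birc3 rose in every group. Birc3, which encodes cIAP2, had ratios of 3.26, 1.64, 4.11 and 3.97 in the wild-type LPS mice and 3.01, 2.58 and 2.16 in MyD88-/- LPS mice 1 to 3. Under E. coli they were 3.30, 3.33, 2.08 and 1.61 in wild-type and 2.51, 1.33, 2.19 and 0.79 in MyD88-/- mice. All 15 were positive and the genotypes overlapped under both stimuli. The responses were 3.24, 2.58, 2.58 and 1.70 with errors of 0.40 to 0.46, or 9.48-, 5.99-, 5.98- and 3.26-fold, with a limma adjusted p of at most 0.0111. In MyD88-/- E. coli the Birc3 call was lost without mouse 1 (1.43) or mouse 3 (1.54), and the value was 2.68 on unswapped arrays alone.

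Birc2 encodes cIAP1, which ubiquitinates RIPK1 in the TNF receptor complex. The spot measured on more arrays gave 2.28, 1.42, 2.01 and 1.07 in the wild-type LPS mice and 1.34, 1.98, 1.60 and 2.14 in the MyD88-/- LPS mice. Under E. coli it gave 2.62, 2.52, 1.36 and 2.07 in wild-type and 1.60, 2.73, 1.48 and 0.97 in MyD88-/- mice. No mouse was below 0.97 and the genotypes overlapped. The responses were 1.70, 1.77, 2.14 and 1.70 (SE 0.27 each), with limma adjusted p of at most 0.000467, and the other Birc2 spot gave 1.87, 1.25, 1.81 and 1.66 and was called in all 4. Birc5, which encodes survivin, a protein of dividing cells, lay between 0.00 and 0.18 with errors of 0.13.

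Xiap encodes the most direct inhibitor of executioner caspases. With LPS its ratios were 0.58, -0.86, -0.40 and 0.30 in wild-type and 0.14, -0.79, 0.49 and -0.50 in MyD88-/- mice. With E. coli they were -1.31, -0.53, -1.65 and -1.13 in wild-type and 0.73, 1.72, 0.48 and -1.02 in MyD88-/- mice. The 4 wild-type E. coli mice were all below 0, and MyD88-/- mouse 4 overlapped with them. Xiap fell by 1.15 ± 0.35 in wild-type E. coli (2.23-fold, limma adjusted p = 0.0268) and was not called in the other groups, at -0.09, -0.17 and 0.48. The call was lost without mouse 1 (-1.10), 3 (-0.99) or 4 (-1.16) and on the swapped arrays alone (-0.97).

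**Figure D3:**
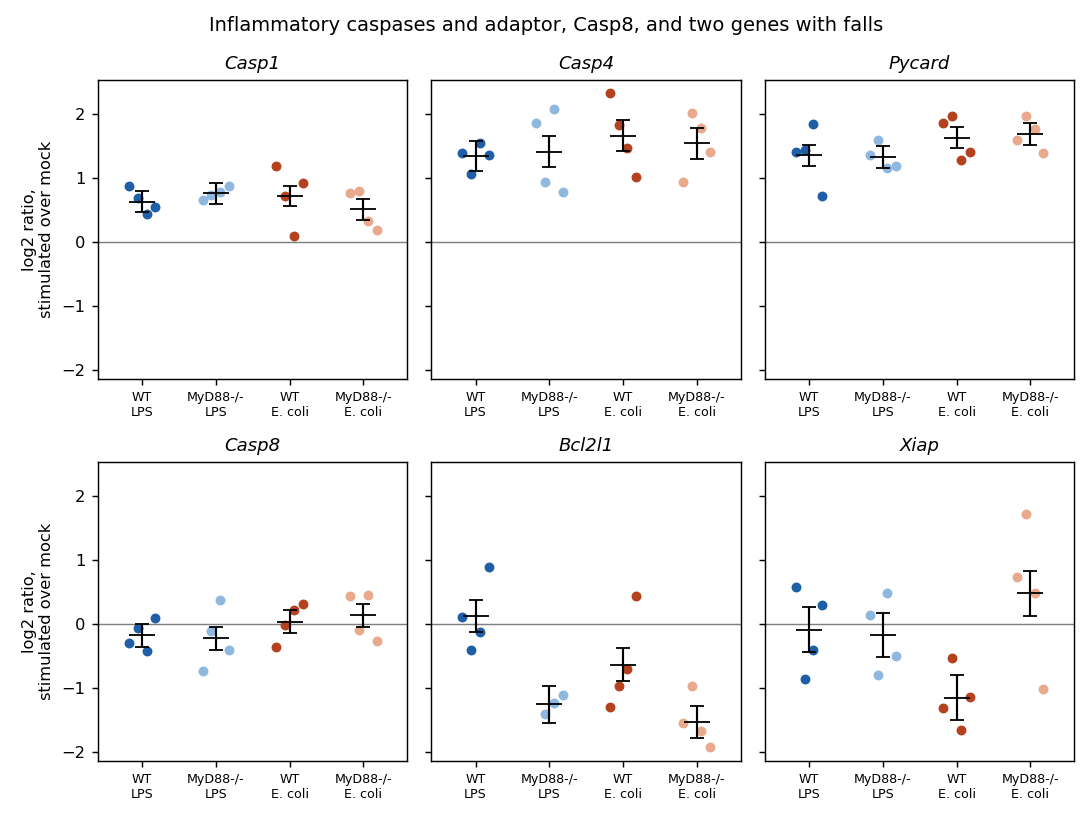
Log2 ratio of stimulated over mock cells in each mouse (points) for Casp1, Casp4, Pycard, Casp8, Bcl2l1 and Xiap, by genotype (WT, wild-type) and stimulus, with the limma group mean and its SE (black bars). Casp4 lies at or above 0.78 and Pycard at or above 0.72 in every mouse, Casp8 scatters around 0, Bcl2l1 is below 0 in all MyD88-/- mice with a value, and Xiap is below 0 in all wild-type E. coli mice.

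In death receptor signalling, the receptor Fas and the inhibitor Cflar rose in every group while the adaptor Fadd and the kinase Ripk3 were not called. Fas, measured on 24 arrays, had ratios of 4.27, 3.62, 2.85 and 3.93 in the wild-type LPS mice and 1.82, 3.88 and 2.71 in MyD88-/- LPS mice 1 to 3. Under E. coli they were 4.18, 2.38 and 3.10 in wild-type mice 1, 3 and 4 and 1.62, 3.81, 4.06 and 3.78 in MyD88-/- mice. No value was below 1.62 and the genotypes overlapped. The responses were 3.67, 2.80, 3.22 and 3.32 with errors of 0.42 to 0.49, or 12.7-, 6.97-, 9.32- and 9.97-fold, with limma adjusted p of at most 0.00177. These were the largest fitted ratios of the 30 genes in wild-type LPS and MyD88-/- E. coli.

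Cflar encodes c-FLIP, which takes the place of caspase-8 at death receptors and blocks its activation. Its ratios were 2.80, 2.52, 3.13 and 2.87 in the wild-type LPS mice and 2.24, 1.60, 1.98 and 2.13 in the MyD88-/- LPS mice. Under E. coli they were 2.60, 3.02, 2.65 and 3.22 in wild-type and 2.13, 2.16, 1.82 and 2.00 in MyD88-/- mice. Under each stimulus the lowest wild-type mouse was above the highest MyD88-/- mouse. The responses were 2.83, 1.99, 2.87 and 2.03, each ± 0.14, or 7.11-, 3.97-, 7.32- and 4.07-fold, and their limma adjusted p, at most 1.53e-07, were the lowest of the set in each group. Fadd, the adaptor that recruits caspase-8, lay between -0.45 and 0.00. Ripk3, the kinase of necroptosis, was at -0.63 ± 0.27 in wild-type LPS (limma adjusted p = 0.135), passed on unswapped arrays alone (-0.88, adjusted p = 0.0245), and lay between -0.09 and 0.25 elsewhere. Fasl, the ligand of Fas, and Traf2 were not tested.

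Of the genes acting after mitochondrial release, Dffa rose in every group and Apaf1 in wild-type LPS. Dffa encodes ICAD, the chaperone and inhibitor of the nuclease that cuts DNA in apoptosis. Its responses were modest, 0.52, 0.60, 0.86 and 0.46 (SE 0.12 each), or 1.44-, 1.52-, 1.81- and 1.37-fold, with limma adjusted p of at most 0.0191, and all 16 mouse values lay between 0.26 and 1.07. In MyD88-/- E. coli the Dffa call was lost without mouse 1 (0.45), 2 (0.42) or 3 (0.43) and on the swapped arrays alone (0.50). With each group fitted alone the Dffa calls held in wild-type E. coli and in 0 of the other 3 groups, and in MyD88-/- LPS the value was 0.38 on unswapped and 0.96 on swapped arrays. Apaf1, the scaffold of the apoptosome, rose by 0.73 ± 0.22 in wild-type LPS (limma adjusted p = 0.0323), and was at 0.49, -0.09 and 0.50 in the other groups. The call was lost without mouse 1 (0.82), 3 (0.59) or 4 (0.61), with each array centred and scaled (0.60), with a dye term and random block (adjusted p = 0.0858) and with the group fitted alone (0.0941). Apaf1 was at 1.34 on the unswapped arrays alone and at 0.17 on the swapped ones, where it was not called. Cycs, which encodes cytochrome c, was between 0.03 and 0.32, and its wild-type E. coli value passed without mouse 2 (0.47) and with a dye term and random block (limma adjusted p = 0.0404). Diablo, which encodes an antagonist of IAPs, lay between -0.29 and -0.15, and Aifm1, a mitochondrial flavoprotein, between -0.28 and 0.23. Dffb, the nuclease itself, was not tested.

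None of the 30 genes was called for a genotype difference, MyD88-/- minus wild-type response, with either stimulus, where 0.287% of all spots were called with LPS and 0.751% with E. coli. At an unadjusted p under 0.05 the limma fit held 4 of the 30 genes with LPS (13.3%, against 8.91% of all spots) and 5 with E. coli (16.7%, against 13.3%). The median standard error of a difference was 0.313. The genotypes had no overlap between their mice for Bcl2l1 and Cflar with LPS, as for 6.68% of all spots, and for Bcl2a1a, Cflar and Dffa with E. coli, as for 9.08% of all spots.

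Cflar came nearest to a call under both stimuli. Its response was lower in MyD88-/- cells by 0.84 ± 0.20 with LPS (95% interval -1.26 to -0.42, limma adjusted p = 0.112) and by 0.85 ± 0.20 with E. coli (-1.27 to -0.43, adjusted p = 0.063), so the MyD88-/- response was 0.559 and 0.556 of the wild-type one. In the array-level limma fit that has a dye term and a random block, the adjusted p were 0.00989 and 0.00457. That fit set the correlation between the 2 arrays of a mouse at 0.118, so it treated them almost as separate replicates. It called 189 spots for the E. coli difference, against 55 in the main fit. With E. coli the Cflar difference also passed with a value in all 4 mice of every group (limma adjusted p = 0.0377) and on unswapped arrays alone (-1.09, adjusted p = 0.0365). With each array centred and scaled the differences were -0.48 and -0.69. The adjusted p ran over all alternatives from 0.00989 to 0.564 for LPS and from 0.00457 to 0.379 for E. coli. Cflar was still induced in MyD88-/- cells, 3.97- and 4.07-fold. The difference of Bcl2a1a was -1.24 ± 0.33 with E. coli (limma adjusted p = 0.0992), which passed with the dye term and random block (adjusted p = 0.0252), and -0.30 ± 0.33 with LPS (adjusted p = 0.815), or 0.10 with each array centred and scaled. With E. coli the spots of its copies gave -0.75 ± 0.19 (Bcl2a1b), -1.27 ± 0.29 (Bcl2a1c) and -0.39 ± 0.54 (Bcl2a1d). Their limma adjusted p were 0.0913, 0.063 and 0.814, and among these copies the genotypes overlapped for Bcl2a1d only. The difference of Bcl2l1 was -0.89 ± 0.36 with E. coli (limma adjusted p = 0.29), or -0.20 on unswapped arrays alone, and -1.37 ± 0.39 with LPS (adjusted p = 0.24). For Xiap the difference was 1.63 ± 0.49 with E. coli (limma adjusted p = 0.148), which passed the threshold without MyD88-/- E. coli mouse 4 (2.13), and -0.07 ± 0.49 with LPS. Dffa with E. coli was at -0.40 ± 0.17, Casp2 with LPS at -1.60 ± 0.59 and Ripk3 with LPS at 0.88 ± 0.39, with limma adjusted p of 0.303, 0.431 and 0.526.

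For Casp1, Casp4 and Pycard the fitted genotype differences lay within 0.21 of 0. The genotype difference of Pycard was -0.03 with LPS (95% interval -0.54 to 0.47) and 0.05 with E. coli (-0.46 to 0.55). That of Casp1 was 0.13 (-0.34 to 0.60) and -0.21 (-0.68 to 0.26), and that of Casp4 was 0.07 (-0.64 to 0.79) and -0.12 (-0.84 to 0.59). That of Casp12, which had the fewest values of these 4 genes, was -0.11 (-1.40 to 1.17) and 0.50 (-0.78 to 1.79). Fas and Bcl2l11 had wide intervals, from -2.25 to 0.52 and from -0.61 to 2.00 with LPS.

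**Figure D4:**
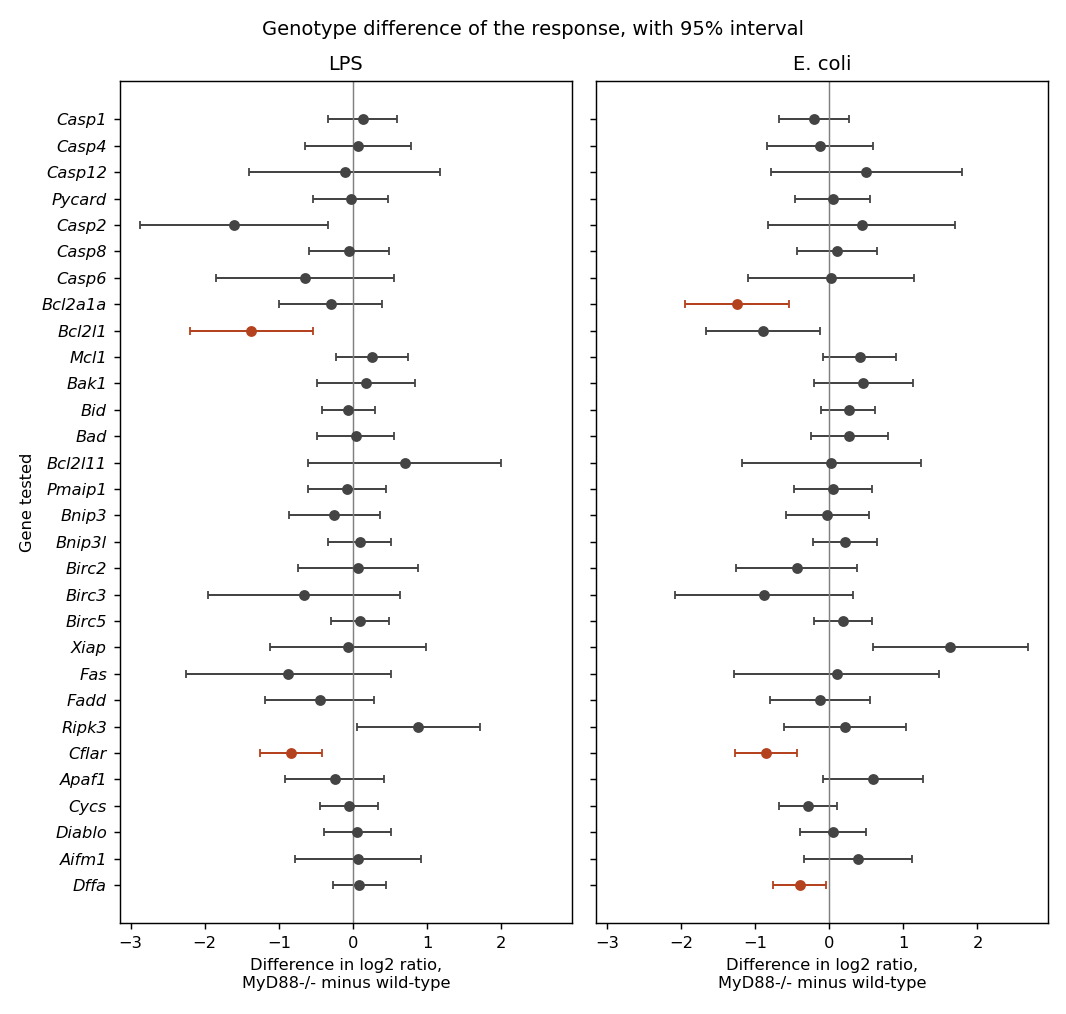
Difference in log2 ratio, MyD88-/- minus wild-type, of the 30 tested genes with LPS and with E. coli (points), with 95% intervals (bars) and in red the genes whose mouse values do not overlap between genotypes. No gene passed the threshold adjusted over all spots, and Cflar is red in both panels at -0.84 and -0.85.

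The difference between the E. coli and the LPS response passed the threshold for none of the 30 genes. Limma called no gene for E. coli minus LPS in wild-type cells, nor in MyD88-/- cells, nor for the interaction of genotype and stimulus, where 0%, 0% and 0% of all spots were called. Unadjusted p under 0.05 in the limma fit were found for Apaf1 (-0.82 ± 0.31), Bad (-0.54 ± 0.24) and Xiap (-1.06 ± 0.49) in wild-type cells, for 0 genes in MyD88-/- cells, and for Xiap (1.70 ± 0.69) and Casp2 (2.04 ± 0.83) in the interaction. The smallest adjusted p of the 30 genes was 0.999, and 10%, 0% and 6.67% of them had an unadjusted p under 0.05, against 4.05%, 2.42% and 2.99% of all spots. The LPS dose and the number of bacteria are not matched in any unit that the labels give.

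A wider list of 84 other cell death genes, of which 64 were on the array and 43 were tested, included single genes with larger ratios. It too was chosen with earlier results known, and it holds Bcl2a1b and Bcl2a1d, copies of Bcl2a1a. In wild-type LPS 12 of the 43 were called higher and 8 lower, against 7.99% and 9.04% of all spots, and in MyD88-/- LPS 9 and 4, against 5.28% and 4.7%. In wild-type E. coli 14 were called higher and 8 lower, against 9.43% and 11.8%, and in MyD88-/- E. coli 13 and 3, against 6.35% and 4.42%. In this order of groups, 27.9%, 20.9%, 32.6% and 30.2% of the 43 were called higher. For the 30 genes described above it was 36.7%, 33.3%, 33.3% and 33.3%. The median responses of the 43 were -0.0909, 0.118, 0.0265 and 0.242. The 6 with the largest wild-type ratios were Tnf, the death receptor ligand, Tnfaip3, which encodes the ubiquitin editor A20, Gadd45b, a stress-induced inhibitor of JNK signalling, Traf1, a partner of cIAPs, Bcl2a1d and Sphk1, the kinase that makes sphingosine 1-phosphate. In wild-type E. coli their log2 ratios were 6.18, 4.91, 4.34, 3.92, 3.26 and 2.80, and in wild-type LPS they were 5.12, 4.27, 3.53, 2.96, 2.48 and 3.14. Tnf alone of the 43 was called for a genotype difference, at -2.25 ± 0.30 with E. coli (limma adjusted p = 0.00105), with -1.52 ± 0.30 for LPS (adjusted p = 0.05, not called). That is 2.33% of the 43 with E. coli, against 0.751% of all spots, and 0% with LPS, against 0.287%.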

How the data were processed

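Per the labels, the authors quantified the scanned slides with GenePix Pro 3.0 and used BASE and GeneSpring for their analysis. What they deposited is a log2 ratio per spot and array, normalized in a way the labels leave out. Background correction, spot filter and the direction of the ratio are also not given in the sources used here. The 15 dye pairs all correlated above 0 across spots (r from 0.256 to 0.71), so no array was turned. Values at the floor of -6.64 (4333 of 265421) were treated as missing, and the arrays of a mouse were averaged to 16 mouse-level ratios. Spots with a value in at least 3 of 4 mice of every group (7325 of 13872) went into a linear model with 1 coefficient per group (limma 3.58.1, lmFit then eBayes, prior degrees of freedom 2.97, under R 4.3.3), with 2-sided p adjusted by Benjamini and Hochberg over these spots and a threshold of 0.05. The 9 comparisons are 4 responses, 2 genotype differences, 2 stimulus differences and their interaction. The script was tested on simulated data.

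The 42 genes, their 7 roles and the wider list were chosen with earlier results of these data known. Every gene with a spot is named. Mouse values are given for genes called in a difference or called in a response with an absolute log2 ratio of at least 1, and the wider list is shown by group ratios of the genes called in a genotype difference and of the 6 with the largest ratio called in a wild-type response. A gene with several spots is represented by the spot measured on most arrays. Of 13872 spots 11480 had 1 symbol, 50 several and 2342 none. Alternatives were centring and scaling of arrays, floor values kept, other filters on missing values, 1 dye orientation, an array-level fit with dye term and random block, single groups, leaving out each mouse, and the mouse number as a block. Figures were drawn with matplotlib 3.10.9.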

Additional observations from a re-analysis of the deposited data

Results flagged for a closer look

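In 6 of 106 sets of 4 mice (1 gene in 1 group) 1 mouse stood apart from the other three by more than Dixon's 95% limit for the gap over the range, where chance gives about 1 in 20, or 5.3. In wild-type E. coli, Bak1 of mouse 1 was lowest at -1.74, with the others from -0.43 to -0.17. In MyD88-/- E. coli, Bak1 of mouse 1 was highest at 0.41, with the others from -0.49 to -0.35. Bnip3 of that mouse was highest at 0.28, with the others from -0.64 to -0.49, and its Fas value was lowest at 1.62, with the others from 3.78 to 4.06. Apaf1 of MyD88-/- E. coli mouse 2 was highest at 0.98, with the others from 0.29 to 0.37. In wild-type LPS, Dffa of mouse 1 was lowest at 0.33, with the others from 0.58 to 0.60. The number of such values is near that given by chance, and their cause was not tested.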

How the results depend on the processing

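Of the 50 calls of a gene in a response, 32 held in every setting in which the gene could be fitted. The other 18 were lost in at least 1, while 8 uncalled values passed in at least 1 setting. Not every gene could be fitted in every setting. A response of Cflar was fitted in 13 alternative settings, one of Birc3 in 12 and one of Fas, Bcl2l11 or Bcl2l1 in 11. No call changed sign. Centring each array ended the calls of Bak1 (-0.66) and Bid (-0.34) in wild-type E. coli, and centring with scaling also those of Bnip3l (-0.39) and Apaf1 (0.60) in wild-type LPS. A filter of 2 mice per group ended Bak1 and Bid in wild-type E. coli and Casp1 in MyD88-/- E. coli. On swapped arrays alone 26 of the 30 genes, Bcl2l1 not among them, could be fitted and 0 were called lower in any group: the calls of Casp1 in all 4 groups, of Bnip3l and Apaf1 in wild-type LPS, of Bak1, Bid, Bnip3l, Pmaip1, Xiap and Bcl2l11 in wild-type E. coli and of Dffa and Pmaip1 in MyD88-/- E. coli were lost. Fits on single groups ended Bnip3l, Apaf1 and Dffa in wild-type LPS, Dffa in MyD88-/- LPS, Casp1, Bak1, Bid, Bnip3l and Pmaip1 in wild-type E. coli and Casp1, Dffa and Pmaip1 in MyD88-/- E. coli. The MyD88-/- LPS response against mock had 11 genes called, and 7 with a value required in all 4 mice, a filter that leaves 20 of the 30 genes. The wild-type E. coli response against mock had 15, and 8 on swapped arrays only. The genotype difference for LPS had 0, and 1 (Cflar) with a dye term and random block. The genotype difference for E. coli had 0, and 1 (Cflar) with a value in all 4 mice and 1 (Cflar) on unswapped arrays only, and 2 (Cflar and Bcl2a1a) with a dye term and random block; the cause was not tested. Leaving out 1 mouse gave 9 to 12, 10 to 11, 12 to 14 and 8 to 11 genes called in wild-type and MyD88-/- cells with LPS and then with E. coli, 0 to 0 in the genotype difference for LPS and 0 to 1 in that for E. coli, the last without MyD88-/- E. coli mouse 4.

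Over all spots, swapped arrays alone gave 676, 301, 888 and 525 calls in these 4 responses, fits on single groups 653, 417, 848 and 436, and leaving out 1 mouse as few as 854, 497, 1115 and 510, against 1247, 731, 1554 and 789. The genotype differences had 21 and 55 spots called, 12 and 24 on unswapped, 12 and 37 on swapped arrays, 35 and 86 with values in all mice, 42 and 189 with the dye term, and, leaving out 1 mouse, at least 18 and 35.

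The labels number mice 1 to 4 for both stimuli of a genotype. With the mouse number as a replicate block 0 genes were called in both stimulus differences and the interaction, as without it. Residuals of the 8 same-numbered pairs correlated between -0.057 and 0.14. For each LPS mouse the best match was sought among the 4 E. coli mice of its genotype. The best match had the same number in 2 of 8 cases, so the block was not used.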
